A study of Homo sapiens with 18 samples.

Results

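The MYC, MAX and MXD network was followed as 9 genes, MYC, MAX, MXD1, MXD3, MXD4, MXI1, MNT, MLX and MGA, in 3 Burkitt lymphoma cell lines. The members were taken by gene symbol from the authors' tables, where all 9 were present in every line, among 17561 genes in any table. The tables held 16001 genes for BL-41, 15365 for Namalwa and 16787 for Jiyoye. The study asked what follows loss of FOXO3, a forkhead transcription factor, in Burkitt lymphoma, a germinal centre B cell cancer in which a translocation places MYC under immunoglobulin control. The groups were BL-41 with FOXO3 shRNA and with scrambled shRNA, Namalwa with FOXO3 shRNA and with scrambled shRNA, and Jiyoye with FOXO3 shRNA and with scrambled shRNA. The 3 lines are established from tumours, and the cells of all 6 groups received a lentivirus expressing a short hairpin RNA (shRNA) and were sorted for infection on day 4. Namalwa and Jiyoye carry Epstein-Barr virus. Each group had 3 libraries of messenger RNA, 18 in all. The labels call these triplicates without saying that cultures were separate, so each p-value rests on the variation among these libraries alone, and that variation may be technical. The labels name no other hairpin against FOXO3, so loss of FOXO3 and other effects of the hairpin cannot be told apart.

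MYC is a basic helix-loop-helix leucine zipper protein that binds DNA only as a dimer with MAX, at the E-box CACGTG, where it recruits histone acetyltransferases and elongation factors. MXD1, MXD3, MXD4, MXI1 and MNT also pair with MAX at E-boxes and bring the SIN3 and HDAC corepressors, so they oppose MYC. MGA pairs with MAX inside a Polycomb repressor, and MLX links the network to MondoA and glucose sensing. MXI1 has been described as a gene that FOXO3 activates in colon cancer cells.

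Promoter sequence was available for 8 of the 9 members, in 13 RefSeq windows (GRCh38.p14) that run from 250 bases before to 50 after a transcription start. The windows were searched on both strands for the E-box CACGTG, which is its own reverse complement, and for the FOXO word GTAAACA, which reads TGTTTAC on the other strand. MXI1 has 3 annotated starts, and 2 of its 3 windows held the FOXO word. The stretches around both copies are shown because MXI1 is the member that earlier work ties to FOXO3, with the FOXO word in capitals. They lie on the plus strand, the first at chr10:110209981-110210186 in an intron and upstream of the second start, the other at chr10:110225894-110226000, running across the third start and holding 8 exonic bases.
MXI1 start 2: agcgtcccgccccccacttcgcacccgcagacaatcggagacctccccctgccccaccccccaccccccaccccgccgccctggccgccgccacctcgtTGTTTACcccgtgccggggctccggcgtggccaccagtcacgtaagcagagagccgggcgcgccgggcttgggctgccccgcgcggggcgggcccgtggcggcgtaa
MXI1 start 3: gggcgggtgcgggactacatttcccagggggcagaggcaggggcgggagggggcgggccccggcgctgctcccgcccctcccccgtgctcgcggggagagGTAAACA
The word spans positions -151 to -145 from the second start and -2 to 5 from the third. It was present in 1202 of 35116 windows of all genes (3.42%). Among 1019 genes with 3 windows, 15 held it in at least 2 of them (1.47%).

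The E-box was found once each in the windows of MXD4, MNT and MLX, which are shown with the E-box in capitals because these 3 genes are themselves network members. The MXD4 stretch is chr4:2262318-2262359 and the MNT stretch chr17:2401224-2401277, both on the minus strand and upstream of the gene. The MLX stretch is chr17:42567026-42567079 on the plus strand and includes 8 exonic bases.
MXD4: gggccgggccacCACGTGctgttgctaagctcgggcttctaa
MNT: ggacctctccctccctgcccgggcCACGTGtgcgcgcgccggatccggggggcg
MLX: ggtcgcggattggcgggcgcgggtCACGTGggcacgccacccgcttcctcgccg
E-boxes began at position -238 in MXD4, -193 in MNT and -50 in MLX. Of all windows, 2548 held an E-box (7.26%). Neither word occurred in the windows of MAX, MXD1, MXD3 and MGA, and a match or its absence describes these letters in this window and no binding.

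**Figure D1:**
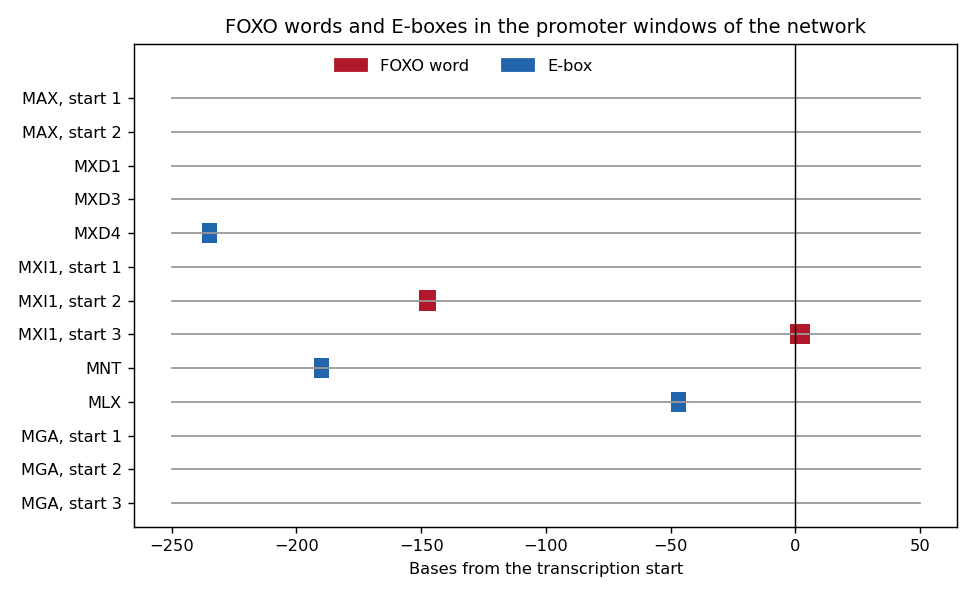
Positions of the FOXO word (red) and the E-box (blue) in the 13 promoter windows of 8 network genes, with bases from the transcription start on the horizontal axis and 1 window per line. The FOXO word is seen in 2 of 3 MXI1 windows, and the E-box in the MXD4, MNT and MLX windows.

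FOXO3 itself fell in BL-41 and Namalwa. Its normalized value, which the authors gave as 1 figure per arm, was 545 with FOXO3 shRNA and 945 with scrambled shRNA in BL-41, 398 and 851 in Namalwa, and 384 and 471 in Jiyoye. In the authors' deposited tables the log2 fold change was -0.79 in BL-41 (DESeq2 adjusted p = 3.15e-07), -1.09 in Namalwa (adjusted p = 2.49e-09) and -0.30 in Jiyoye (adjusted p = 0.187), so the loss in Jiyoye did not pass the test. A gene is called here at an adjusted p under 0.05 over all genes of its line. Each fold change is of FOXO3 shRNA over scrambled shRNA, and its error is a standard error (SE) derived here from the fold change and its p. No value per library was used, so no spread within an arm is given. Of 8 B cell markers, EBF1 was near 0 in Jiyoye (2.82 with FOXO3 shRNA and 2.49 with scrambled shRNA), and the others had at least 124 in every arm. Marker sums of T and NK cells ran from 57.8 to 116 over the 6 arms. Of the measured T and NK markers, 5 of 7, 3 of 6 and 5 of 7 averaged under 10 in BL-41, Namalwa and Jiyoye. Epithelial and fibroblast markers summed to 2127 with FOXO3 shRNA and 3347 with scrambled shRNA in Jiyoye, where KRT8 fell, and to at most 41.8 in the arms of the other lines.

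Of the 9 members, 2 rose and 3 fell in BL-41, none rose and 2 fell in Namalwa, and 1 rose and 1 fell in Jiyoye. MXD1 and MGA rose and MYC, MXD3 and MXI1 fell in BL-41, MXD3 and MXI1 fell in Namalwa, and MNT rose and MXD3 fell in Jiyoye. In BL-41, 14.5% of all genes were called higher and 14.2% lower. In Namalwa these shares were 2.60% and 3.81%, and in Jiyoye 8.69% and 8.70%. Every member averaged 100 or more over the arms of each line. Among genes at such levels, the shares called higher and lower were 20.0% and 20.7% in BL-41, 3.85% and 5.76% in Namalwa, and 12.7% and 12.8% in Jiyoye. In BL-41 and Jiyoye the member counts are near these background shares. In Namalwa the count of falls is above its share but rests on 2 genes. Only 1 of them, MXD3, stays called at an adjusted p under 0.01, and its value is uncertain, as described below. No member rose in Namalwa at an unadjusted p under 0.05 by the DESeq2 test either. The members' median log2 fold change in BL-41, Namalwa and Jiyoye was 0.14, 0.05 and -0.09, against 0.02, -0.0011 and 0.0084 over all genes of those lines.

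MYC, the activator at the centre of the network, fell in BL-41 and was not called in Namalwa or Jiyoye. Its value in BL-41 was 3962 with FOXO3 shRNA and 6674 with scrambled shRNA. In Namalwa the values were 21130.2 and 18985, and in Jiyoye 16892 and 16877. In BL-41 the FOXO3 shRNA arm was thus at 0.594 of the scrambled arm, while both arms of the other lines lay close together. The authors' deposited tables gave MYC log2 fold changes of -0.75 ± 0.17 in BL-41 (SE; DESeq2 adjusted p = 0.000131), 0.15 ± 0.12 in Namalwa (adjusted p = 0.589) and 0.0012 ± 0.11 in Jiyoye (adjusted p = 0.997). The 95% intervals were -1.09 to -0.42 for BL-41, -0.07 to 0.38 for Namalwa and -0.22 to 0.22 for Jiyoye. A MYC change of more than 0.38 in size thus lies outside the intervals of Namalwa and Jiyoye.

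The MYC change differed between lines by a test of the difference itself. Its log2 fold change was lower in BL-41 than in Namalwa by a difference of -0.91 ± 0.21 (SE; z test, adjusted p = 0.00108 over all genes), and lower in BL-41 than in Jiyoye by a difference of -0.75 ± 0.21 (adjusted p = 0.00905). Between Namalwa and Jiyoye the difference was 0.15, with a 95% interval from -0.16 to 0.47. By the same z test the FOXO3 change differed for Namalwa minus Jiyoye, by -0.80 (adjusted p = 0.0174). For FOXO3, BL-41 minus Jiyoye was -0.50 (adjusted p = 0.136) and BL-41 minus Namalwa 0.30 (adjusted p = 0.486), which do not pass. The part of the depth of FOXO3 loss in the MYC differences was not tested. The tables were normalized separately, so differences in MYC level between lines are not tested. As a description, MYC made up 93.0 ppm of the summed values per length in BL-41 with FOXO3 shRNA and 166 with scrambled shRNA, against 533 and 492 in Namalwa and 415 and 432 in Jiyoye. In bulk RNA, fewer cells with a transcript and less transcript per cell cannot be told apart.

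The fall of MYC in BL-41 stood beside changes in cell type markers. In BL-41, 4 of 8 B cell markers fell (CD79B, EBF1, CD22 and BLK), and the summed B cell marker value was 49317 with FOXO3 shRNA and 59002 with scrambled shRNA. In the same line 4 of 9 measured myeloid markers rose (LYZ, CD14, CD33 and CD68), with sums of 444 and 239. These levels are low: 1 of the 9 averaged 100 or more and was not called, and 3 averaged under 10. Of all genes in BL-41, 14.5% were called higher and 14.2% lower. The germinal centre markers CD38 and MME fell and MYBL1 rose there, and the sum over 5 such markers was 9632 with FOXO3 shRNA and 12568 with scrambled shRNA. In Namalwa none of the 17 B cell and myeloid markers was called, with 2 higher and 1 lower at an unadjusted p under 0.05 by the DESeq2 test, and the germinal centre marker CD38 fell. In Jiyoye the B cell markers CD79A and CD79B and the myeloid marker CD14 rose. Their part in the MYC result was not tested.

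MAX (chr14:65006174-65102695 in GRCh38, minus strand), the shared partner that MYC and its antagonists bind, was not called in any line. Its values were 932 with FOXO3 shRNA and 1028 with scrambled shRNA in BL-41, 939 and 989 in Namalwa, and 979 and 1045 in Jiyoye. All 6 arms lay between 932 and 1045, though the lines were normalized separately. Within each line the FOXO3 shRNA arm was the lower one. The authors' deposited tables gave MAX log2 fold changes of -0.14, -0.07 and -0.09 in BL-41, Namalwa and Jiyoye, with DESeq2 adjusted p of 0.439, 0.865 and 0.731. A fall of more than 0.37 in BL-41 is outside its 95% interval, and the lower bounds in Namalwa and Jiyoye were -0.30 and -0.34. MAX shares 13.1% of its exonic bases with FNTB on the opposite strand, which was not called in any line, and 9.96% with the CHURC1-FNTB readthrough gene, which rose in BL-41 by 0.77 in the authors' deposited table (DESeq2 adjusted p = 0.0487).

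**Figure D2:**
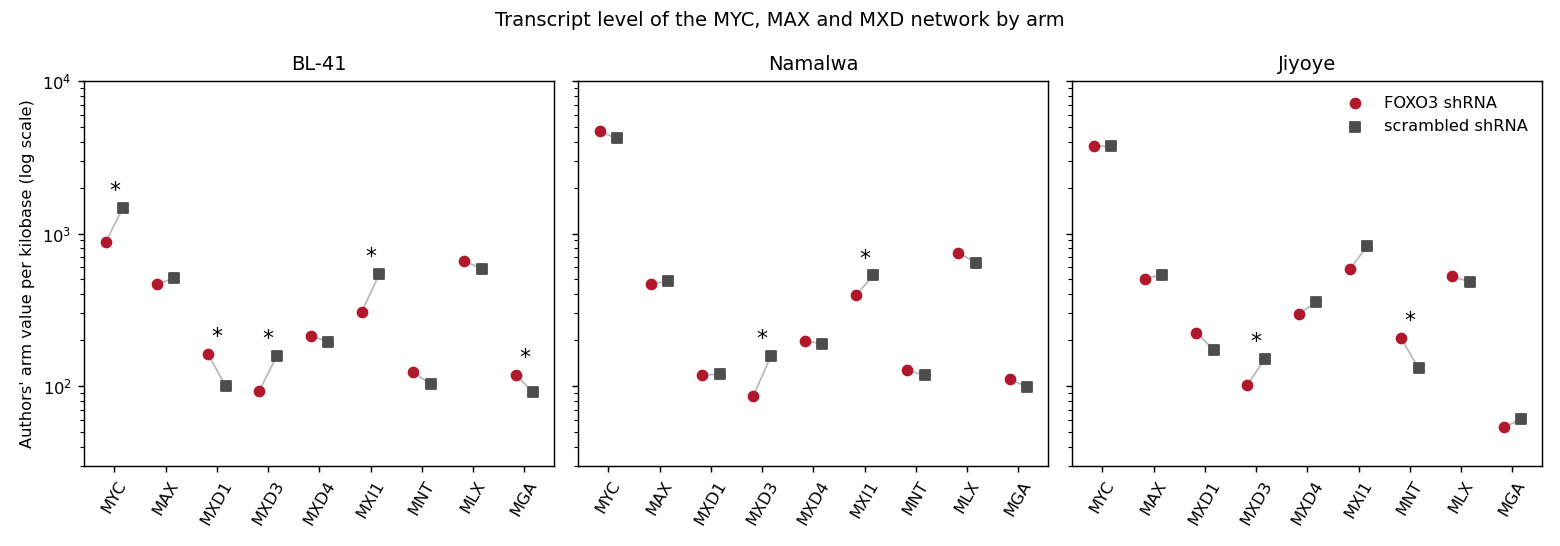
Authors' normalized value per kilobase of transcript (log scale) of the 9 network genes in FOXO3 shRNA (red circles) and scrambled shRNA (grey squares) arms of BL-41, Namalwa and Jiyoye, 1 value per arm, with an asterisk where the adjusted p is under 0.05. MYC is the highest of the 9 in each arm, MXD3 and MXI1 are lower with FOXO3 shRNA in the 3 lines, and MXI1 carries no asterisk in Jiyoye.

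Of the antagonists, MXI1 and MXD3 were lower with FOXO3 shRNA in every line. MXI1 (chr10:110207605-110287365, plus strand), which pairs with MAX and recruits SIN3, had 1032 with FOXO3 shRNA and 1817 with scrambled shRNA in BL-41, 1337 and 1799 in Namalwa, and 1989 and 2775 in Jiyoye. The FOXO3 shRNA arm was at 0.568, 0.743 and 0.717 of the scrambled arm in these lines. The authors' deposited tables gave MXI1 log2 fold changes of -0.82 ± 0.15 in BL-41 (SE; DESeq2 adjusted p = 2.44e-06), -0.43 ± 0.14 in Namalwa (adjusted p = 0.0301) and -0.48 ± 0.22 in Jiyoye (adjusted p = 0.131). MXI1 thus fell in BL-41 and Namalwa and did not pass the test in Jiyoye, where its 95% interval ran from -0.92 to -0.04. FOXO3 had log2 fold changes of -0.79, -1.09 and -0.30 in BL-41, Namalwa and Jiyoye. Its part in the MXI1 change was not tested. No pair of lines was shown to differ in the MXI1 change, with adjusted p of 0.286 for BL-41 minus Namalwa, 0.576 for BL-41 minus Jiyoye and 0.978 for Namalwa minus Jiyoye by the z test. The differences had 95% intervals of -0.79 to 0.01, -0.87 to 0.20 and -0.46 to 0.57, so differences as large as -0.79 and -0.87 lie within them.

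MXD3, an MXD protein known from mouse cells in S phase, was the one member called in every line. Its values were 191 with FOXO3 shRNA and 323 with scrambled shRNA in BL-41, 157 and 288 in Namalwa, and 166 and 243 in Jiyoye. Within each line the FOXO3 shRNA arm lay below the scrambled arm. The authors' deposited tables gave MXD3 log2 fold changes of -0.76 ± 0.24 in BL-41 (SE; DESeq2 adjusted p = 0.00709), -0.87 ± 0.24 in Namalwa (adjusted p = 0.00816) and -0.55 ± 0.19 in Jiyoye (adjusted p = 0.0222). Of 14549 genes in the 3 tables, 263 were called lower in all 3 lines (1.81%), and 215 were called higher in all 3 (1.48%). FOXO3 itself had -0.79, -1.09 and -0.30 in these lines.

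MXD3 shares sequence with its neighbours. The gene lies on the minus strand at chr5:177301461-177312757 (GRCh38), and 24.2% of its exonic bases overlap exons of PRELID1, a mitochondrial lipid transfer protein gene on the opposite strand. PRELID1 rose in all 3 lines, with log2 fold changes of 0.70, 0.53 and 0.76 in BL-41, Namalwa and Jiyoye in the authors' deposited tables. A further 19.5% of the MXD3 exonic bases overlap RAB24 on the same strand, which was not called in any line. Whether the counting used strand is not given in the sources used here, so reads from MXD3 and PRELID1 may not be separable, and the MXD3 value is uncertain to that extent. The gene length in the authors' tables was 2052, 1830 and 1624 bases for MXD3 in BL-41, Namalwa and Jiyoye, which changes its value per length but not its fold change.

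MXD1 (chr2:69897688-69942945, plus strand), the MXD protein tied to differentiation of blood cells, rose in BL-41. Its values were 906 with FOXO3 shRNA and 565 with scrambled shRNA in BL-41, 662 and 673 in Namalwa, and 1262 and 975 in Jiyoye. The arms were thus apart in BL-41, close in Namalwa and apart to a lesser degree in Jiyoye. The authors' deposited tables gave MXD1 log2 fold changes of 0.68 ± 0.17 in BL-41 (SE; DESeq2 adjusted p = 0.000468), -0.02 ± 0.14 in Namalwa (adjusted p = 0.964) and 0.37 ± 0.23 in Jiyoye (adjusted p = 0.315). The change in BL-41 exceeded that in Namalwa by 0.70 ± 0.22 (SE; z test, adjusted p = 0.0276). Against Jiyoye the difference was 0.31, with a 95% interval from -0.26 to 0.87 (adjusted p = 0.653). MXD1 shares 3.73% of its exonic bases with SNRNP27, a splicing factor gene on the same strand. SNRNP27 rose in the 3 lines, by 0.65, 0.47 and 0.93 on the log2 scale per the authors' deposited tables. Its part in the MXD1 value was not tested. The part of the myeloid markers that rose in BL-41 in the MXD1 result was not tested.

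MXD4 (chr4:2247432-2262109, minus strand), an MXD protein of quiescent and differentiating cells, was not called in any line. Its values were 807 with FOXO3 shRNA and 735 with scrambled shRNA in BL-41, 744 and 717 in Namalwa, and 1119 and 1332 in Jiyoye. The FOXO3 shRNA arm was above the scrambled arm in BL-41 and Namalwa and below it in Jiyoye. The authors' deposited tables gave MXD4 log2 fold changes of 0.14, 0.05 and -0.25 in BL-41, Namalwa and Jiyoye, with DESeq2 adjusted p of 0.486, 0.930 and 0.335. No pair of lines was shown to differ for MXD4, and the lowest adjusted p was 0.287, for BL-41 minus Jiyoye.

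MNT (chr17:2384073-2401104, minus strand), the broadly expressed antagonist that occupies MAX when MYC is low, rose in Jiyoye. Its values were 602 with FOXO3 shRNA and 500.3 with scrambled shRNA in BL-41, 619.5 and 571 in Namalwa, and 999.9 and 636 in Jiyoye. The FOXO3 shRNA arm was the higher one in each line. The authors' deposited tables gave MNT log2 fold changes of 0.27 ± 0.15 in BL-41 (SE; DESeq2 adjusted p = 0.200), 0.12 ± 0.13 in Namalwa (adjusted p = 0.797) and 0.65 ± 0.13 in Jiyoye (adjusted p = 1.95e-05). The difference between Namalwa and Jiyoye was -0.54 ± 0.18 (SE; z test, adjusted p = 0.0883), which does not pass the threshold. MNT shares 12.2% of its exonic bases with an antisense noncoding transcript, which was not analysed here.

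MLX (chr17:42567072-42573239, plus strand), the MAX-like partner of MondoA and of some MXD proteins, was not called in any line. Its values were 1563 with FOXO3 shRNA and 1393 with scrambled shRNA in BL-41, 1783 and 1535 in Namalwa, and 1246 and 1145 in Jiyoye. The FOXO3 shRNA arm was the higher one in each line, by 0.17, 0.22 and 0.12 on the log2 scale in the authors' deposited tables for BL-41, Namalwa and Jiyoye. The DESeq2 adjusted p were 0.286, 0.319 and 0.570, and the upper 95% bounds were 0.38, 0.44 and 0.34. MLX shares 18.2% of its exonic bases with PSMC3IP on the opposite strand, which was not called in any line either.

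MGA (chr15:41621134-41773081, plus strand), the scaffold of the Polycomb complex PRC1.6 that also binds MAX, rose in BL-41. Its values were 1396 with FOXO3 shRNA and 1065 with scrambled shRNA in BL-41, 1292 and 1157 in Namalwa, and 630.0 and 711 in Jiyoye. The FOXO3 shRNA arm was higher in BL-41 and Namalwa and lower in Jiyoye. The authors' deposited tables gave MGA log2 fold changes of 0.39 ± 0.13 in BL-41 (SE; DESeq2 adjusted p = 0.0153), 0.16 ± 0.17 in Namalwa (adjusted p = 0.777) and -0.17 ± 0.16 in Jiyoye (adjusted p = 0.549). The change in BL-41 exceeded that in Jiyoye by 0.57 ± 0.21 (SE; z test, adjusted p = 0.0748), which does not pass the threshold.

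**Figure D3:**
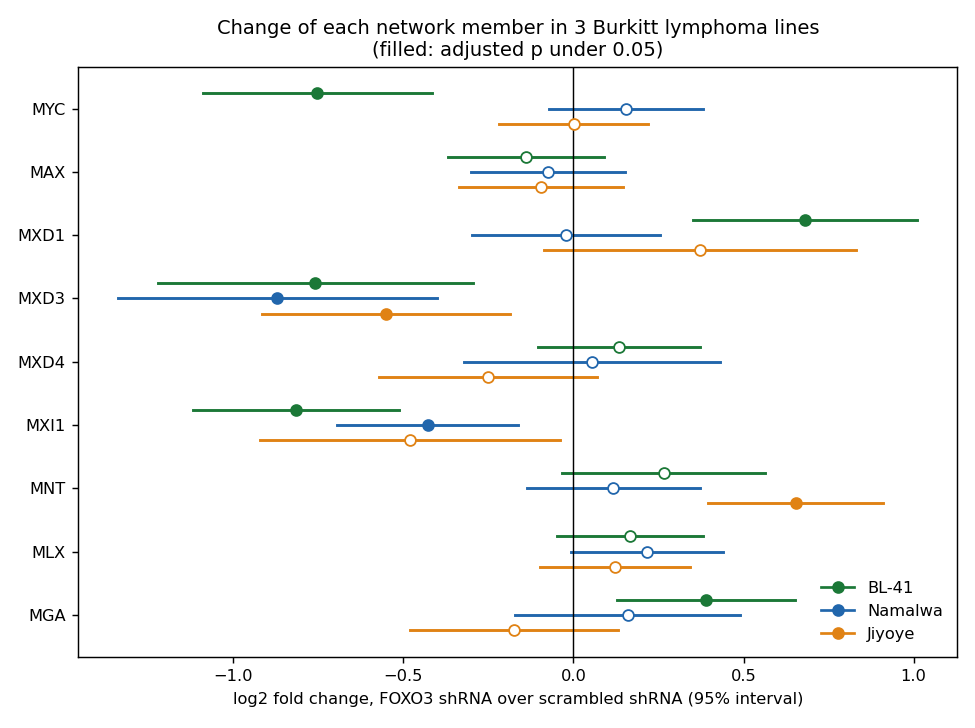
Log2 fold change of FOXO3 shRNA over scrambled shRNA (horizontal axis) of each network gene in BL-41 (green), Namalwa (blue) and Jiyoye (orange), with 95% intervals from the recovered SE and filled points at an adjusted p under 0.05. MXD3 is filled in the 3 lines, at -0.76, -0.87 and -0.55, while MYC is filled in BL-41 at -0.75 and lies near 0 in Jiyoye.

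Over the network, 27 differences between pairs of lines were examined, 9 genes in 3 pairs. Of these, 3 passed the adjusted threshold, for 2 genes, and 5 had an unadjusted p under 0.05. They were MYC in both pairs with BL-41 and MXD1 in BL-41 minus Namalwa. Among all genes, 7.01% differed for BL-41 minus Namalwa, 6.25% for BL-41 minus Jiyoye and 2.75% for Namalwa minus Jiyoye.

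Per kilobase, MYC was the most abundant member in all 6 arms and MXI1 the most abundant antagonist. MYC had 877 per kilobase with FOXO3 shRNA and 1478 with scrambled shRNA in BL-41, 4678 and 4203 in Namalwa, and 3739.6 and 3736 in Jiyoye. MLX, MAX and MXI1 held the next 3 places in every arm. MLX ranked above MXI1 in BL-41 and Namalwa, and MXI1 ranked above MLX in Jiyoye. In BL-41 MXI1 held place 4 with FOXO3 shRNA, at 307 per kilobase, and place 3 with scrambled shRNA, at 541, having changed places with MAX. In Namalwa the same exchange was seen, with 394 per kilobase for MXI1 in the FOXO3 shRNA arm and 531 in the scrambled arm. MXD4 held place 5 in every arm. MXD1, MXD3, MNT and MGA filled the lower places, with MGA last in the 3 scrambled arms and MXD3 last with FOXO3 shRNA in BL-41 and Namalwa. With 1 value per arm, whether neighbours in this order differ beyond the spread between libraries was not tested.

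MYC was set against the sum of its 5 antagonists, MXD1, MXD3, MXD4, MXI1 and MNT, as a ratio of values per kilobase. In BL-41 this ratio was 0.976 with FOXO3 shRNA and 1.35 with scrambled shRNA. In Namalwa it was 5.07 and 3.77, and in Jiyoye 2.64 and 2.29. The ratio was thus lower with FOXO3 shRNA in BL-41 and higher in Namalwa and Jiyoye. The antagonist sum was lower with FOXO3 shRNA in each line, at 899 and 1097 per kilobase in BL-41, 922 and 1115 in Namalwa, and 1418 and 1629 in Jiyoye. MXI1 supplied 34.2% of the antagonist sum with FOXO3 shRNA and 49.4% with scrambled shRNA in BL-41, 42.7% and 47.6% in Namalwa, and 41.6% and 50.5% in Jiyoye. The share of MNT was 13.8% and 9.38% in BL-41, 13.8% and 10.5% in Namalwa, and 14.5% and 8.02% in Jiyoye. The share of MXD1 was 17.9% and 9.16% in BL-41, 12.8% and 10.7% in Namalwa, and 15.8% and 10.6% in Jiyoye. In each line the share of MXI1 was lower and the shares of MXD1 and MNT higher with FOXO3 shRNA. A share also moves with the other members, and in Namalwa MXD1 itself had 118 per kilobase with FOXO3 shRNA and 119.5 with scrambled shRNA. Against MAX, MYC stood at 1.89 with FOXO3 shRNA and 2.90 with scrambled shRNA in BL-41, 10.1 and 8.60 in Namalwa, and 7.42 and 6.95 in Jiyoye. These ratios are of transcripts, not of proteins, and have no test.

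**Figure D4:**
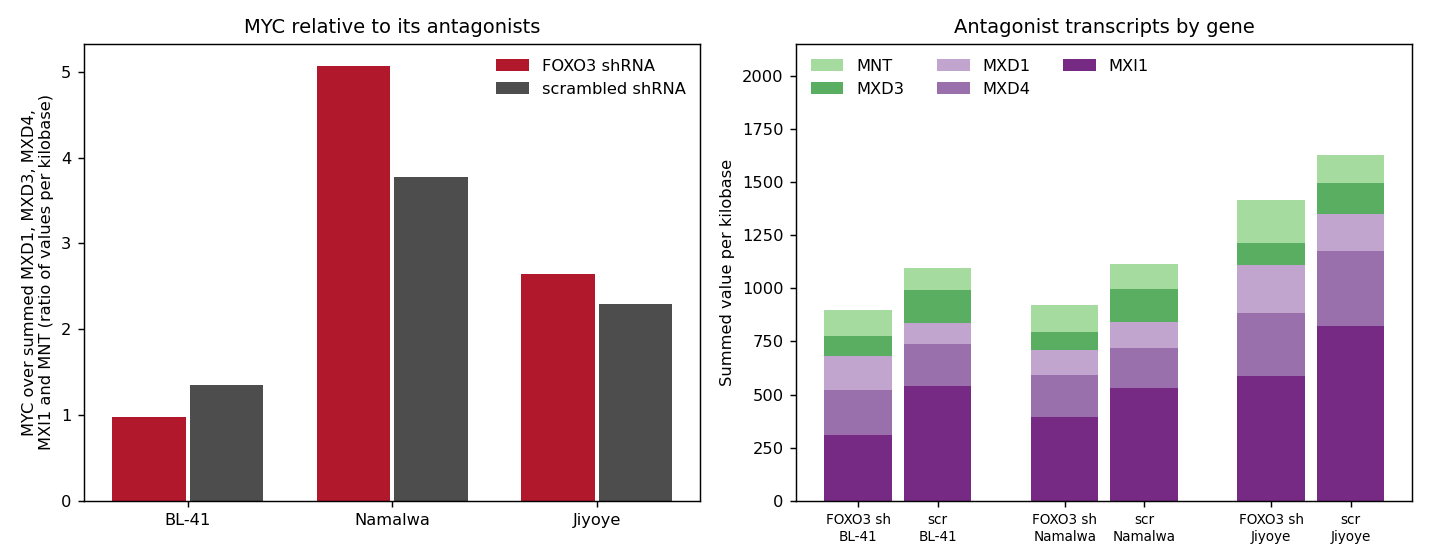
Left, the ratio of MYC to the sum of MXD1, MXD3, MXD4, MXI1 and MNT (values per kilobase) in FOXO3 shRNA (red) and scrambled shRNA (grey) arms of each line; right, that sum stacked by gene. The ratio is 0.976 and 1.35 in the BL-41 arms, 5.07 and 3.77 in the Namalwa arms and 2.64 and 2.29 in the Jiyoye arms, and the MXI1 segment is shorter with FOXO3 shRNA in the 3 lines.

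The other genes of the pathway were followed in 11 lists. Some genes, among them HK2, TXNIP, FBXO32 and CDKN1B, stand on more than 1 list, so counts of different lists are not separate observations. Counts are of measured genes called in each direction, to be read against the background shares given above. Of other family members and partners, 3 of 10 rose and 1 fell in BL-41, 1 of 10 rose and none fell in Namalwa, where none had an unadjusted p under 0.05 for a fall, and 3 of 12 rose and 1 fell in Jiyoye. USF2, which binds the same E-box without MAX, rose in the 3 lines, by 1.07, 0.68 and 1.06 on the log2 scale in the authors' deposited tables. ZBTB17, the MIZ1 protein through which MYC represses genes, rose by 0.37 in BL-41 (DESeq2 adjusted p = 0.0117) and 0.47 in Jiyoye (adjusted p = 0.00337) in the authors' deposited tables. MAZ, a zinc finger protein that binds the MYC promoter, rose by 0.36 in BL-41 and 0.77 in Jiyoye in the authors' deposited tables. The list's median was 0.27, 0.11 and 0.06 in BL-41, Namalwa and Jiyoye.

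Of 17 SIN3 and NCOR corepressor genes, through which MXD proteins and MNT repress, 5 rose and none fell in BL-41. SIN3B had 1337 with FOXO3 shRNA and 984 with scrambled shRNA there, which the authors' deposited table gives as 0.44 on the log2 scale (DESeq2 adjusted p = 0.000379). HDAC1, HDAC2, ARID4B and BRMS1 were the others. In Namalwa and Jiyoye none of the 17 was called by the DESeq2 test. At an unadjusted p under 0.05, 7, 2 and 3 were higher in BL-41, Namalwa and Jiyoye, and 0 were lower in each line. The list's median was 0.14, 0.04 and -0.03 in these lines.

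Of 20 MYC coactivator genes, 9 rose and 1 fell in BL-41, against 20.0% and 20.7% of genes at such levels. SUPT5H, an elongation factor subunit, had 4650.5 with FOXO3 shRNA and 2296 with scrambled shRNA, or 1.02 on the log2 scale in the authors' deposited table for BL-41 (DESeq2 adjusted p = 1.12e-09). CREBBP, an acetyltransferase, rose by 0.62 in BL-41 and 0.41 in Jiyoye in the authors' deposited tables. In Namalwa and in Jiyoye 2 of the 20 rose and none fell, with 1 and 2 lower at an unadjusted p under 0.05. The list's median was 0.27, 0.15 and 0.19 in BL-41, Namalwa and Jiyoye.

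Of 27 genes of MYC protein turnover, 6 rose and 4 fell in BL-41, 2 rose and 1 fell in Namalwa, and 4 rose and 1 fell in Jiyoye, with medians of 0.01, 0.08 and 0.04. SET, an inhibitor of the phosphatase that destabilizes MYC, rose by 0.88, 0.52 and 0.91 in BL-41, Namalwa and Jiyoye in the authors' deposited tables. GSK3A, a kinase of the family that marks MYC for decay, also rose in the 3 lines, by 0.73, 0.38 and 0.58 there. TRIM32, described as a ubiquitin ligase of MYC in mouse neural progenitors, fell in the 3 lines, at -0.52, -0.62 and -0.46 on the log2 scale in the authors' deposited tables.

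Of 50 genes that MYC is known to activate, 8 rose and 11 fell in BL-41, 3 rose and 3 fell in Namalwa, and 3 rose and 5 fell in Jiyoye. At an unadjusted p under 0.05 by the DESeq2 test, 10, 17 and 6 were higher and 11, 3 and 8 lower in these lines. The list's median was -0.0050, 0.14 and -0.00075 in BL-41, Namalwa and Jiyoye. The 11 falls in BL-41 included the glycolytic genes ENO1, LDHA and HK2 and the one-carbon genes SHMT1, SHMT2 and MTHFD1, while PKM and MTHFD2 were not called there. ENO1 and LDHA also fell in Jiyoye, at -0.57 and -0.51 on the log2 scale in the authors' deposited table, where MYC had 0.0012. SHMT2 had 15041 with FOXO3 shRNA and 25811 with scrambled shRNA in BL-41, or -0.78 on the log2 scale in the authors' deposited table (DESeq2 adjusted p = 4.58e-07). ENO1 had 22164 and 35972, or -0.70 on the log2 scale in the authors' deposited table (DESeq2 adjusted p = 5.08e-07). IMPDH2, the rate-limiting enzyme of guanine nucleotide synthesis, rose by 0.81 in BL-41 in the authors' deposited table. SHMT1 and HNRNPA1 fell and SRM and GNL3 rose in the 3 lines, and the part of MYC in these changes was not tested. SHMT1 had log2 fold changes of -0.95, -0.75 and -0.98 in BL-41, Namalwa and Jiyoye in the authors' deposited tables. Among nucleolar genes of the list, GNL3, PPAN and RRP12 rose and BOP1 fell in BL-41, at 0.58, 0.53, 0.39 and -0.38 on the log2 scale in the authors' deposited table, and NPM1 and NCL were not called in any line.

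Of MYC and MIZ1 repressed genes, 6 of 18 rose and 3 fell in BL-41, none of 20 rose and 2 fell in Namalwa, where none had an unadjusted p under 0.05 for a rise, and 3 of 20 rose and 2 fell in Jiyoye. Medians were 0.17, -0.15 and 0.03. CDKN2B, a CDK inhibitor that MYC represses through MIZ1, had 89.5 with FOXO3 shRNA and 33.2 with scrambled shRNA in BL-41, or 1.43 on the log2 scale in the authors' deposited table (DESeq2 adjusted p = 4.39e-06). FTH1, ferritin heavy chain, rose by 0.39 in BL-41 and 0.71 in Jiyoye in the authors' deposited tables. BTG2, an antiproliferative gene, fell in Namalwa, at -0.63 on the log2 scale per the authors' deposited table. CDKN1A, coding for p21, fell in BL-41, at -0.56 on the log2 scale in the authors' deposited table (DESeq2 adjusted p = 0.00421).

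For MLX, the readouts are genes listed here as targets of its dimer with MondoA. The list is from general knowledge, and the tie of each gene to MondoA rather than to other partners of MLX was not checked. Its called genes were FASN, ARRDC2 and CPT1A (higher) and ARRDC4 and HK2 (lower) in BL-41, and FASN (higher) and TXNIP and PFKFB2 (lower) in Jiyoye. Of the listed genes, 3 of 11 rose and 2 fell in BL-41, and 1 of 11 rose and 2 fell in Jiyoye. None of 10 was called in Namalwa, where 0 were higher and 1 lower at an unadjusted p under 0.05. TXNIP, an inhibitor of glucose uptake, had 7769 with FOXO3 shRNA and 6719 with scrambled shRNA in BL-41, 2179 and 2358 in Namalwa, and 1200.1 and 2049 in Jiyoye. The authors' deposited tables gave TXNIP log2 fold changes of 0.21 in BL-41 (DESeq2 adjusted p = 0.185), -0.11 in Namalwa (adjusted p = 0.677) and -0.77 in Jiyoye (adjusted p = 1.83e-06). ARRDC4, its paralogue, had -0.67 in BL-41 (DESeq2 adjusted p = 0.000513) and 0.24 in Namalwa (adjusted p = 0.542) in the authors' deposited tables, and in Jiyoye it was listed at 0.515 and 0.481. TXNIP and ARRDC4 were thus called in different lines. The list's median was 0.21, -0.08 and -0.05.

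For MGA, 12 other subunits of PRC1.6 were measured. Of these, PCGF6 and RYBP rose and TFDP1 and TFDP2 fell in BL-41, none was called in Namalwa, where 1 was higher and 1 lower at an unadjusted p under 0.05, and YAF2 rose and TFDP1 fell in Jiyoye. PCGF6, which MGA holds in the complex, rose by 0.50 in BL-41 in the authors' deposited table (DESeq2 adjusted p = 0.0120), beside MGA at 0.39. Of germline genes that PRC1.6 keeps silent, 1 of 21 rose and 1 fell in BL-41, none of 18 rose and 1 fell in Namalwa, and none of 22 rose and 2 fell in Jiyoye, with 0 higher at an unadjusted p under 0.05 in Namalwa and in Jiyoye. Arm means were under 10 for 12, 12 and 15 of these germline genes in BL-41, Namalwa and Jiyoye. Medians were 0.01, 0.05 and 0.14 for the subunits and -0.09, 0.03 and -0.09 for the germline genes.

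Of 22 listed regulators of MYC expression in B cells, 2 rose and 7 fell in BL-41, and 1 rose and 2 fell in Jiyoye. In Namalwa none rose and 2 fell, and 3 were higher at an unadjusted p under 0.05. FOXO3, the target of the hairpin, is on this list and is among the falls in BL-41 and in Namalwa. MEF2B, a germinal centre factor, had 5500.3 with FOXO3 shRNA and 9738 with scrambled shRNA in BL-41, or -0.82 on the log2 scale in the authors' deposited table (DESeq2 adjusted p = 1.13e-05). EBF1, a B cell factor, fell there, at -0.62 on the log2 scale per the authors' deposited table. IRF4, a MYC regulator in activated B cells and plasma cells, had 3433 with FOXO3 shRNA and 9723 with scrambled shRNA in Jiyoye, or -1.50 on the log2 scale in the authors' deposited table (DESeq2 adjusted p = 1.64e-14), and was called higher in BL-41. Medians were -0.06, -0.03 and 0.09.

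Among 17 other genes known as FOXO targets, 7 rose and 4 fell in BL-41, none was called in Namalwa, and 1 rose and 2 fell in Jiyoye, with medians of 0.26, -0.09 and 0.10. In Namalwa 1 was higher and 5 were lower at an unadjusted p under 0.05 by the DESeq2 test. MXI1 fell in Namalwa, where FOXO3 fell by 1.09 on the log2 scale and none of these 17 genes was called. In BL-41, where MXI1 also fell, the ubiquitin ligase gene FBXO32 rose by 1.33 and KLF2 by 1.06 on the log2 scale in the authors' deposited table, while the catalase gene CAT had -0.70 there.

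**Figure D5:**
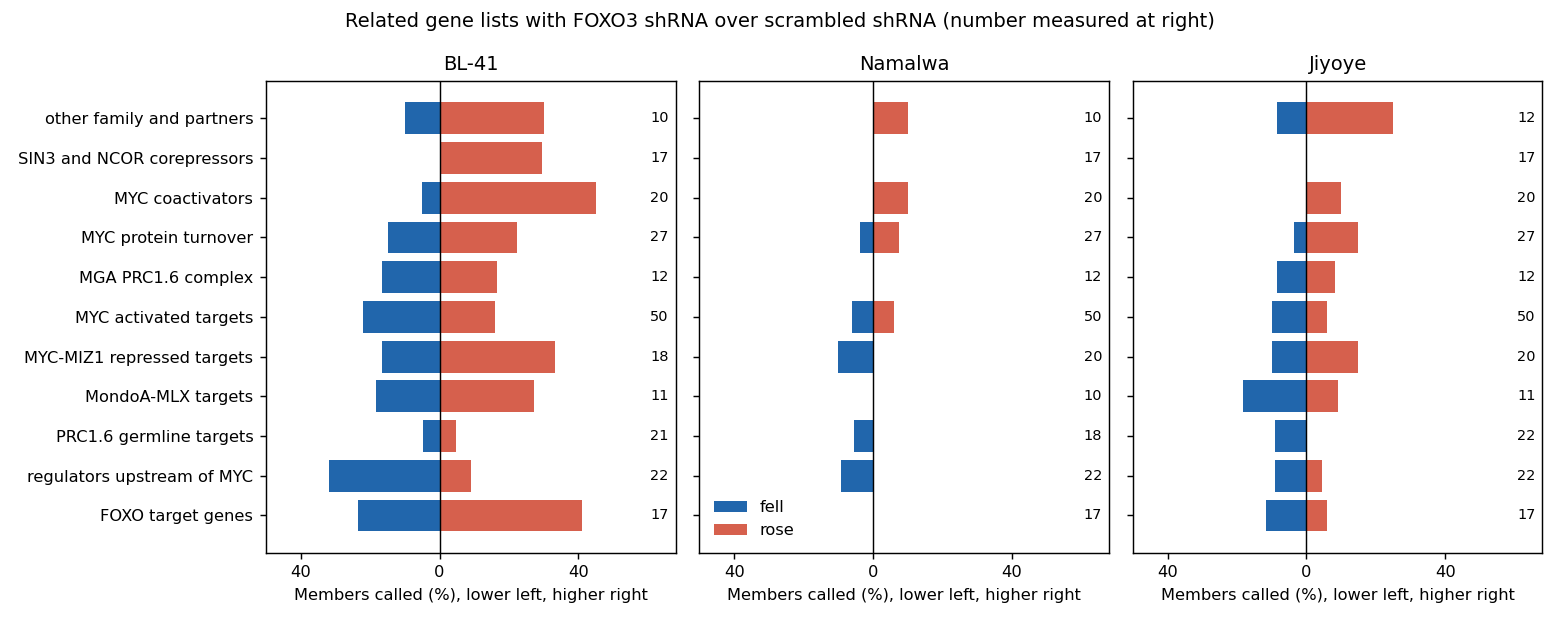
Share of measured genes of each of 11 lists (percent, horizontal axis) called lower (blue, left) and higher (red, right) with FOXO3 shRNA over scrambled shRNA in BL-41, Namalwa and Jiyoye, with the number measured at the right. The longest red bar is that of the MYC coactivators in BL-41, 9 of 20, and Namalwa has no bar for the corepressors, the PRC1.6 complex, the MondoA and MLX targets and the FOXO targets.

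The genes most like MYC in their changes were named by the Euclidean distance over the log2 fold changes of the 3 lines, among 8861 genes. They included UBE2J1, CEP83, NME1 and PIGU, at distances of 0.12 to 0.14. NME1, a nucleoside diphosphate kinase gene on the list of MYC activated genes, had log2 fold changes of -0.81, 0.22 and -0.09 in BL-41, Namalwa and Jiyoye in the authors' deposited tables, beside -0.75, 0.15 and 0.0012 for MYC. For MXD4 they were FAM156B, GRSF1, SLC35E1, TARSL2 and TIMM8A, at distances of 0.02 to 0.05. MXD4 itself was not called in any line, and its SE was 0.12, 0.19 and 0.16 in BL-41, Namalwa and Jiyoye. These distances are smaller than that error, so no shared change with MXD4 is shown. The distance is over 3 values and has no test.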

How the data were processed

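Messenger RNA of 18 libraries in 6 groups was analysed. Messenger RNA was enriched on oligo-dT, per the labels' protocols. The submitters' processing notes list Bowtie2, RSEM, DESeq2 and hg38 without versions. Every line had 1 table, deposited by the authors, with 1 normalized signal value per arm, and no value per library was used here. The ratio of the arm values equals the authors' log2 fold change (largest difference 1.39e-14), so the arm values carry any moderation of it. The p-values are the authors', from DESeq2, as deposited, and Benjamini-Hochberg adjustment over each table gave the same adjusted p (largest difference 3.56e-15). Depth per library was not estimated here. In BL-41, Namalwa and Jiyoye the median SE was 0.144, 0.127 and 0.149 over genes averaging 100 or more.

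Calls are those at an adjusted p under 0.05. The count test planned for per-library values could not be run. The SE was obtained by dividing the fold change by the normal quantile for its p, and intervals cover 95%. This assumes that p comes from a Wald test of the same, possibly moderated, fold change, and the SE, intervals and comparisons of lines rest on it. Lines were compared by a z test of their fold changes' difference, adjusted by Benjamini-Hochberg over all genes within each of 3 pairs. The test was tried on simulated data for BL-41 minus Namalwa, where it recovered 90% of 200 set differences. Each was set at 1 in size on the log2 scale, in genes averaging 100 or more in both lines. Smaller differences, such as those of the members, were not tried, so the 90% does not hold for them. Of its calls there, 6.74% were false. The simulated noise was drawn from the same derived SE, so this trial does not check the SE itself. Values per kilobase use the authors' gene length. Alternatives were adjusted p thresholds of 0.01 and 0.1, a minimum mean of 100, a log2 fold change of at least 1, and 2 rescalings. Named genes are all members, FOXO3, TXNIP, ARRDC4, up to 4 called genes of smallest adjusted p per list and line, and 5 genes nearest to MYC and to MXD4. Some genes that this rule names are not reported here. Other genes of a list, and overlapping neighbours, were named after their values were seen. The members and lists were chosen with earlier results of these data known. Overlaps and positions are from GENCODE 44 (GRCh38). Computation used Python 3.11.15 with scipy 1.17.1, pandas 2.3.3 and numpy 2.4.6, and plots matplotlib 3.10.9.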

Additional observations from a re-analysis of the deposited data

Results flagged for a closer look

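The MYC change with FOXO3 shRNA differed between lines. Its log2 fold change in BL-41 minus that in Namalwa was -0.91, and in BL-41 minus that in Jiyoye -0.75, and both passed the z test of the difference over all genes (adjusted p = 0.00108 and 0.00905). MXD1 differed in the other direction, with a difference of 0.70 for BL-41 minus Namalwa (adjusted p = 0.0276).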

How the results depend on the processing

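No paired analysis was possible because the tables used here give 1 value per arm and none per library. For that reason leaving out each replicate, a replicate block, another count tool and another count normalization were not run. In BL-41, Namalwa and Jiyoye 5, 2 and 2 members were called. A threshold of 0.01 gave 1 in Namalwa and 1 in Jiyoye, and requiring a log2 change of 1 or more in size left 0 in each line. Differences between lines past the test numbered 3, and 5 at a threshold of 0.1. MYC in Jiyoye, near 0, turned sign, to -0.0029 when recentred on the median gene and -0.017 when rescaled to equal sums. These were the only exceptions among 81 values, the 27 fold changes of members under 3 settings, of which 79 kept direction and side of the threshold. Little could move here. Adjusting over genes averaging 100 or more leaves the fold change as it was, and recentring shifted it by at most 0.0044. Counts of called list genes stayed within 1.5 times in 45 of 66 comparisons with alternatives. Neither alternative, a threshold of 0.01 or a minimum mean of 100, could raise a count, so lists without a call could not move. Moderated fold changes and the lack of values per library limit all results.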

Other observations

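A few genes around the network, named after their values were seen, had the same call in the 3 lines. The part of MYC in their changes was not tested. SRM, spermidine synthase, had log2 fold changes of 0.34, 0.52 and 1.20 in BL-41, Namalwa and Jiyoye in the authors' deposited tables. GNL3, nucleostemin, had 0.58, 0.33 and 0.41, and HNRNPA1, a splicing regulator, -0.29, -0.33 and -0.65 in the authors' deposited tables. IRF4 was called in opposite directions, with 0.54 in BL-41 (DESeq2 adjusted p = 0.00157) against -0.42 in Namalwa (adjusted p = 0.0058) and -1.50 in Jiyoye in the authors' deposited tables.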
